A study of Homo sapiens with 18 samples.

Results

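The genes described here are those whose signal followed the 3' to 5' ratio of the actin control probesets across the 18 arrays of the study. The actin ratio of an array was the log2 signal of the probeset at the 3' end of the actin messenger RNA minus the log2 signal of the probeset at its 5' end. A probeset was chosen when its Pearson correlation with this ratio over the 18 arrays was at least 0.8 in size and when it also differed by at least 1 log2 unit, in the same direction, between 2 groups of reference chamber arrays. These groups were the 2 arrays of lowest actin 5' signal and the 7 other reference chamber arrays. Of the 27335 probesets above the median mean log2 signal, 2079 met this rule, out of 54675 on the array. Of these, 1547 had a negative correlation and are called the negative group, and 532 had a positive one and are called the positive group. Without 1 array, the reference chamber culture of replicate 1 beside 0.1 ppm, 616 and 143 would be chosen. Because the same values chose the probesets, their correlations and their 2-against-7 differences are a description, with no test.

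The samples were A549 cells, an epithelial line from a human lung carcinoma, grown on porous inserts at the air-liquid interface, where the upper cell surface faces air. In each of 9 experiments, cultures in a multiwell plate stood in an exposure chamber and others in a reference chamber, both with humidified air, for 72 h. Each chamber of an experiment gave 1 array. The exposure chamber held formaldehyde at 0, 0.1 or 0.5 ppm, in 3 experiments each, and the reference chamber held none, which gives 6 groups of 3 arrays. A549 was the only line studied, every sample was 1 RNA preparation on 1 array, and the number of arrays limits the precision. The epithelial genes KRT8 and KRT18 had mean log2 signals of 12.57 and 13.80, and EPCAM had 9.34. The epithelial KRT19 was at 6.02. Of 11 measured markers of blood, endothelial and stromal cells, 8 lay below the median probeset, PTPRC, CD3E and CDH5 among them at 1.77, -0.44 and 1.82, and CD14, COL1A1 and PECAM1 lay above it at 6.63, 8.16 and 4.88.

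Arrays of this type read each messenger RNA mostly near its 3' end, and the labelling used here starts copying RNA at the 3' tail. When RNA is broken or copying stops early, the copy still covers the 3' end and no longer reaches the 5' end. The manufacturer therefore placed control probesets at the 3' end, the middle and the 5' end of a few abundant RNAs, and a high 3' to 5' ratio is commonly taken as a sign of broken RNA or of short copies. A probeset far from the 3' end would lose signal in the same way, while scaling each array to a common level raises the values of probesets that lose none. How far each probeset lies from the end of its messenger RNA was not analysed here, and broken RNA, short copies and changed gene expression cannot be told apart from the signals alone. The signals are also relative to all RNA of a culture, so that fewer cells expressing a gene and less RNA of it per cell cannot be told apart.

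The actin ratio spread over more than 4 log2 units. On 16 arrays it ran from 4.24 to 6.75 with a median of 5.77, the lowest being replicate 2 of the cultures kept without formaldehyde beside 0.1 ppm. The 2 arrays chosen by their low 5' signal, both from reference chambers, had 7.57 (replicate 3 beside 0 ppm) and 8.67 (replicate 1 beside 0.1 ppm). These 2 are called the low arrays below and stood apart from the rest. Their 5' signals were 6.85 and 5.90, against 7.75 to 9.70 with a median of 8.47 on the 16 others. The middle actin probeset was also lowest there, at 9.63 and 8.64, against 10.07 to 11.45. The 3' probeset was not low, at 14.42 and 14.57, within the 13.85 to 14.63 of the other arrays. On the low arrays actin was thus low in its 5' part and its middle and not at its 3' end. Neither culture had received formaldehyde. CD14, a marker of monocytes, was higher on the low arrays too, at 8.04 to 8.40 against 5.77 to 7.63 on the others, with PTPRC near background, and its part in the results was not tested.

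**Figure D1:**
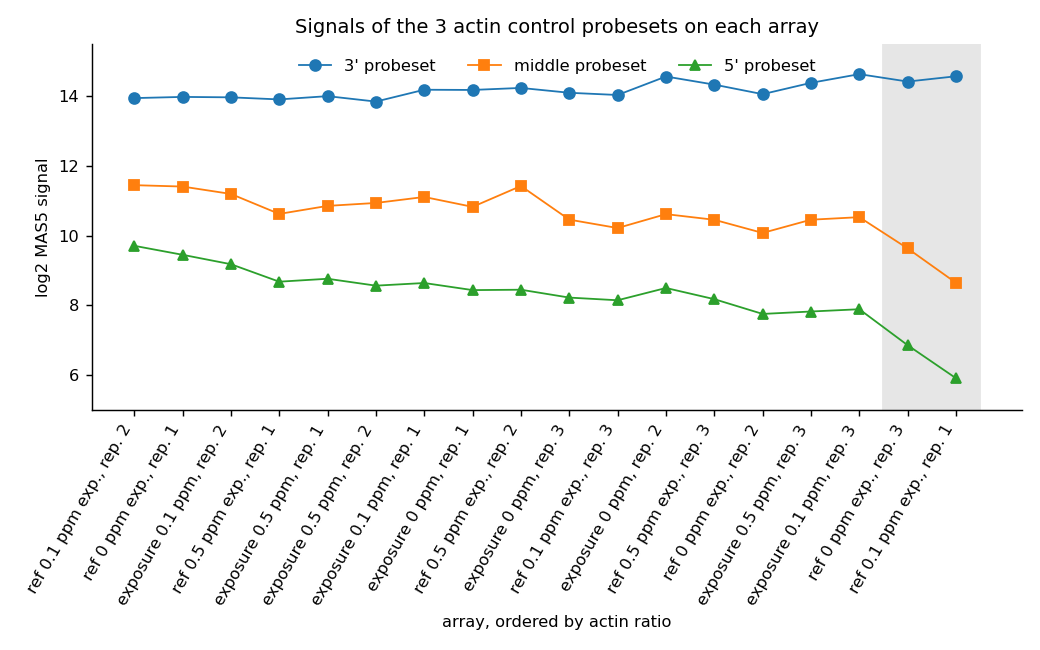
Log2 MAS5 signal (vertical axis) of the actin probesets at the 3' end, the middle and the 5' end on each of 18 arrays, ordered along the horizontal axis from the lowest to the highest actin ratio. The shaded pair at the right are the low arrays, where the 5' signal is 6.85 and 5.90 and the 3' signal is 14.42 and 14.57.

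The ratio was compared between the chambers of an experiment, since the study set these chambers against each other. Its mean was 5.77 ± 0.63 (SD, n = 9) in the exposure chamber and 6.05 ± 1.40 in the reference chamber. Over the 9 pairs the exposure chamber was lower by a mean of 0.28 (SD of the differences 1.36), higher in 5 pairs and lower in 4, and the difference did not pass a two-sided exact permutation test within pairs (p = 0.594). Without the 2 pairs that hold a low array the mean difference was 0.33 in the other direction (exact p = 0.203). The ratios of both chambers of an experiment had a correlation of 0.277 over 9 experiments (exact permutation p = 0.469; Spearman rho 0.50) and of 0.687 over the 7 without a low array (exact permutation p = 0.0929).

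Other control RNAs of the array have 3' and 5' probesets that the rule did not use, and the 3 given here were set against the actin ratio over the 16 arrays without the low ones, which form a cluster of their own. The ratio of GAPDH, the glycolytic enzyme, followed the actin ratio with r = 0.65 (permutation p = 0.00687, adjusted p = 0.0275; rho = 0.641). That of 18S ribosomal RNA went the opposite way, with r = -0.59 (permutation p = 0.0146, adjusted p = 0.0292; rho = -0.576). After quantile normalization neither passed after adjustment by Pearson r, with r of 0.314 for GAPDH (permutation p = 0.24, adjusted p = 0.32) and -0.543 for 18S (permutation p = 0.0301, adjusted p = 0.12). By Spearman's rho 18S passed there (rho = -0.709, permutation p = 0.00272, adjusted p = 0.0109) and GAPDH did not (rho = 0.424, permutation p = 0.104, adjusted p = 0.209). The 28S ribosomal RNA probesets, at log2 signals of -0.31 to 3.85, lay below the median probeset on every array, so their ratio (r = -0.127, permutation p = 0.638) shows neither a relation nor its absence. Without the 2 arrays farthest from the median actin ratio, r was 0.746 for GAPDH and -0.681 for 18S. Within the 9 exposure chamber arrays r was 0.861 for GAPDH (exact permutation p = 0.00342) and -0.764 for 18S (exact permutation p = 0.0131). Within the 7 other reference chamber arrays it was 0.373 and -0.469 (exact permutation p = 0.425 and 0.287).

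The low arrays did not continue the GAPDH relation. Their GAPDH ratios, 0.16 and 0.15, lay at the bottom of the 0.15 to 0.64 of the other arrays, and over all 18 arrays r was -0.0016. The GAPDH 5' signal was 14.61 and 14.67 there, above the 13.67 to 14.31 of the other arrays. The low arrays thus had a high ratio for actin and not for GAPDH.

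The negative group named 1204 genes and the positive group 432, over the 1830 chosen probesets that name exactly 1 gene. The negative group made up 5.66% of the probesets tested and the positive group 1.95%. The median correlation was -0.86 in the negative group, with the strongest at -0.98, and 0.84 in the positive group, with the strongest at 0.95. Between the low arrays and the 7 other reference chamber arrays the median difference was -1.57 log2 units in the negative group and 1.25 in the positive group, against 0.11 over all probesets tested. The rule has no natural edge. Among named genes, ZBTB38 and SRFBP1 lay just inside it in the negative group and COG3 and DPP8 just outside, all with r of -0.80, and in the positive group E4F1 and ALKBH3 lay just inside and SIPA1 and TRPT1 just outside, all with r of 0.80.

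The genes named here are taken from bright probesets, with a mean log2 signal of at least 9 and only the brightest chosen probeset of each gene, and were ranked by correlation. This limit left out a dimmer probeset of UBE2H, a ubiquitin-conjugating enzyme, with the strongest correlation of all (r = -0.98), and one of SOX9, a transcription factor (r = -0.95). In the values that follow, the low array of the 0.1 ppm experiments comes first and that of the 0 ppm experiments second. MIDEAS, a subunit of a histone deacetylase complex of dividing cells, had log2 signals of 6.82 and 7.55 on the low arrays, against 8.45 to 10.05 with a median of 9.33 on the 16 others (r = -0.96). ELF1, a transcription factor of the ETS family, had 7.10 and 7.57 there, against 8.85 to 10.22 with a median of 9.79. In both genes the low arrays lay below every other array.

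CUL4A, the scaffold of a family of ubiquitin ligases, had 10.10 and 10.34 on the low arrays and 11.03 to 12.35 with a median of 11.88 elsewhere. RAC1, a small GTPase that steers the actin cytoskeleton, had 8.93 and 9.59, against 9.86 to 10.97 with a median of 10.64. ADIPOR1, a receptor for adiponectin, had 9.21 and 9.68, against 9.98 to 10.84 with a median of 10.47. These genes did not overlap between the low arrays and the rest, with the narrowest margin in RAC1.

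RDH10, which oxidises retinol on the way to retinoic acid, had 9.14 and 9.35 on the low arrays, against 10.71 to 12.32 with a median of 11.58. APLP2, a membrane protein related to the amyloid precursor, had 7.62 and 8.48, against 9.55 to 10.95 with a median of 10.18. ZDHHC9, an enzyme that attaches palmitate to RAS proteins, had 7.61 and 8.53, against 9.06 to 10.28 with a median of 9.71. Each was lower on both low arrays than on any other array. The other 4 of these 12 genes were DDX52, an RNA helicase of ribosome assembly, GLTP, a carrier of glycolipids, AKIRIN1 and ITPRIPL2, with 2-against-7 differences from -2.06 to -1.61.

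The largest differences among the bright probesets of the negative group were above 3 log2 units. PPP3R1, the regulatory subunit of the phosphatase calcineurin, had 6.72 and 7.61 on the low arrays, against 9.63 to 11.30 with a median of 10.78, a mean difference of -3.39 from the 7 other reference chamber arrays (SD of those arrays 0.61). CASP8, the caspase that starts apoptosis from death receptors, had 7.45 and 7.93, against 9.81 to 11.74 with a median of 10.92. DDX3X, an RNA helicase of translation, had 7.30 and 7.17, against 9.35 to 11.15 with a median of 10.67. In all 3 genes the low arrays stood well below the lowest other array.

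CD9, a membrane organiser of the tetraspanin family, had 7.84 and 7.92 on the low arrays, against 10.06 to 11.69 with a median of 10.80. CLDND1, a protein with a claudin domain, differed by -3.33 between the groups of reference chamber arrays, and LSM12, an RNA-binding protein, by -3.31. Among the 9 exposure chamber arrays alone, r was -0.42 for CD9, -0.39 for LSM12 and -0.84 for CASP8.

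In the positive group the same limit and ranking were used. PMPCB, part of the protease that trims proteins imported into mitochondria, had 13.86 and 13.65 on the low arrays, against 12.28 to 13.16 with a median of 12.62 (r = 0.95). TAF10, a subunit of the general transcription factor TFIID, had 13.68 and 13.69, against 12.22 to 12.98 with a median of 12.45. POLR3C, a subunit of RNA polymerase III, had 11.74 and 11.18, against 9.60 to 10.40 with a median of 9.90. All 3 were higher on both low arrays than on any of the 16 others.

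NIT2, an enzyme of amide metabolism, had 13.40 and 13.34 on the low arrays, against 11.91 to 12.88 with a median of 12.34. RNASEH2C, a subunit of the enzyme that cuts RNA paired with DNA, had 13.77 and 13.62, against 11.12 to 12.65 with a median of 11.79. TP53I3, an oxidoreductase under control of p53, had 13.36 and 13.23, against 11.86 to 12.75 with a median of 12.23. The differences of these genes, from 1.06 to 1.89, were smaller than the largest of the negative group. ZFAND2A, a stress-induced partner of the proteasome, C19orf12, a mitochondrial membrane protein, MIOS, a part of the amino acid sensing pathway of mTOR, RAB27A, a GTPase of vesicle secretion, C1R, a protease of the complement system, and ZNF789, a zinc finger protein, completed the 12, with differences from 1.07 to 1.25. The probesets of MIOS and RAB27A are of a class that can bind RNA of other genes.

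The largest differences among the bright probesets of the positive group were near 2 log2 units. PCSK1N, an inhibitor of a prohormone convertase, had 11.76 and 11.86 on the low arrays, against 8.57 to 10.51 with a median of 9.68. PRR5, a subunit of the mTORC2 kinase complex, had 11.04 and 11.24, against 8.80 to 9.81 with a median of 9.01. SCO2, a copper chaperone of cytochrome c oxidase, had 11.10 and 11.17, against 8.52 to 9.95 with a median of 9.05. The low arrays were more than 1 log2 unit above every other array in these genes. TMEM187, DIPK1B and AAMDC differed by 1.95, 1.95 and 1.92.

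The correlations kept their sign without the low arrays. Over the 16 others, all 1547 probesets of the negative group kept a correlation below 0, with a median of -0.68 and 1404 at or below -0.5. All 532 of the positive group kept one above 0, with a median of 0.64 and 468 at or above 0.5. The median over all probesets tested was -0.05. These 16 arrays entered the choice as part of the 18, so the values are a description. With the low arrays left out and no minimum difference, 370 probesets had r of -0.8 or below and 260 had 0.8 or above, where 2051 and 1288 did over 18 arrays. Of these, 242 of the 370 and 46 of the 260 were also in the groups described here.

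On each array the median of the negative group and that of the positive group lay on opposite sides of the other reference chamber arrays. On the low arrays the median of the negative group stood at -1.72 and -1.40 from the mean of the 7 other reference chamber arrays, and that of the positive group at 1.32 and 1.21. The probesets in neither group stood at 0.16 and 0.15. On the remaining 16 arrays the negative group ran from -0.43 to 0.34 and the positive group from -0.37 to 0.38. In 1462 of 1547 probesets of the negative group both low arrays were below all 16 others, where 18.3% of all probesets tested were, and in 517 of 532 of the positive group both were above, where 24% of all were. The rule used this contrast, and nothing is read from these counts.

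**Figure D2:**
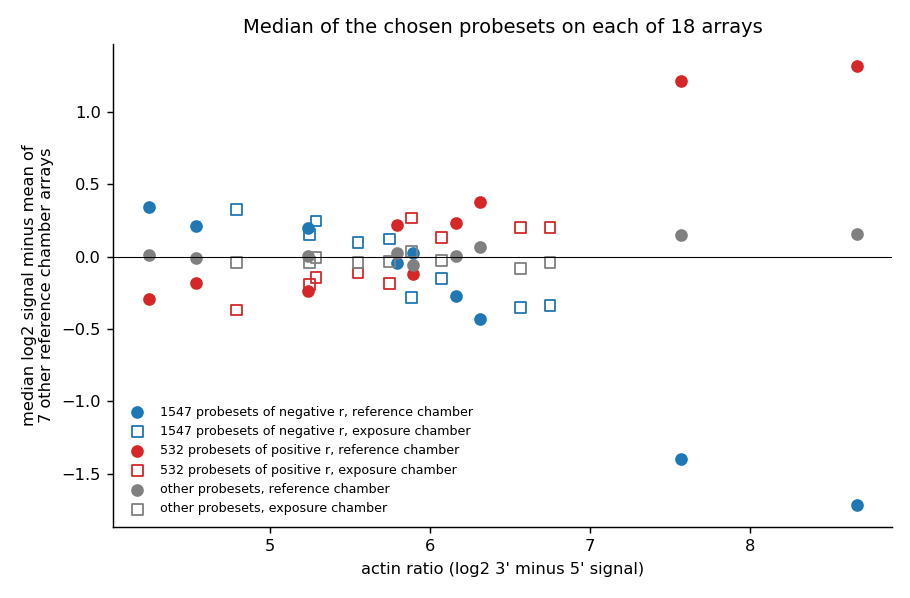
Median log2 signal of the negative group (blue), the positive group (red) and all other probesets (grey), relative to the mean of the 7 other reference chamber arrays (vertical axis), against the actin ratio (horizontal axis). Each of 18 arrays gives 1 point per colour, filled for the reference and open for the exposure chamber, and the low arrays at the right have medians of -1.40 and -1.72 for the negative and 1.21 and 1.32 for the positive group.

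To see whether the relation held in arrays that had no part in the choice, the rule was applied to the 9 reference chamber arrays alone and the slope of each probeset on the actin ratio was then fitted in the 9 exposure chamber arrays with limma, with a term for the formaldehyde concentration. The reference chamber arrays chose 2539 probesets of negative and 1775 of positive correlation. In the exposure chamber 2178 of the 2539 had a slope below 0, or 85.8%, against 53.8% of all probesets tested, and 1082, or 42.6%, passed an unadjusted p of 0.05 in that direction, against 14.7% of all. Of the 1775, 1324 had a slope above 0, or 74.6% against 46.2% of all, and 329, or 18.5%, passed the test against 10.2% of all. None passed after Benjamini-Hochberg adjustment over the 27335 probesets in limma, where the lowest adjusted p was 0.0541. Both chambers of an experiment ran at the same time, so the exposure chamber arrays are not wholly independent of the choice. Without replicate 3 of the exposure chamber at 0.1 ppm, the array of highest ratio of the 16, the counts were 629 and 155. The share of all genes that passed, by the brightest probeset of each, also fell there. It went from 14.4% to 6.6% downward and from 12.4% to 5.12% upward. Without the exposure chamber array of the 0.5 ppm experiments, replicate 3, the count of the negative list was 612. In that fit 8.53% of all genes passed downward.

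For the named genes these slopes, in log2 signal per log2 unit of the actin ratio, are a description, since the choice over 18 arrays included the exposure chamber arrays. CUL4A had a slope of -0.55 (standard error 0.10), MIDEAS one of -0.64 (standard error 0.12), and GLTP and CASP8 had -0.74 and -0.80. LSM12, at -0.18 (standard error 0.17), and CD9, at -0.19 (standard error 0.14), were among the flattest of the named genes of the negative group. RAB27A had a slope of 0.57 (standard error 0.09), C19orf12 one of 0.52 (standard error 0.09) and DIPK1B one of 0.89 (standard error 0.21), while SCO2 and PRR5 had 0.23 and 0.25.

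Some genes had chosen probesets of both signs. There were 11: CGGBP1, CMTM4, COX11, FEM1B, G2E3, IPO5, KIF16B, MPHOSPH9, PPP2R1B, SLC33A1 and ZMYND11. In SLC33A1, the acetyl coenzyme A transporter of the endoplasmic reticulum, 1 probeset had log2 signals of 8.86 and 9.09 on the low arrays, against 10.20 to 11.42 with a median of 11.22 on the 16 others. Another probeset of the gene had 12.89 and 12.98 there, against 11.32 to 12.62 with a median of 11.64. The low arrays were thus below all other arrays by 1 probeset of this gene and above them by another. By a further probeset they overlapped the others, at 7.53 and 7.35 against 7.25 to 8.27.

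MPHOSPH9, a protein phosphorylated in mitosis, had 9.32 and 9.22 on the low arrays with 1 probeset, against 9.60 to 10.96 with a median of 10.32. With another probeset it had 12.14 and 12.05, against 10.55 to 11.19 with a median of 10.89. ZMYND11, a reader of methylated histone, differed by -2.14 in 1 probeset and by 1.86 in another, the latter dim, with a mean log2 signal of 5.08. Further probesets of these genes lay between, and the brightest probeset of ZMYND11 differed by -0.67.

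CMTM4, a membrane protein that stabilises PD-L1, differed by -1.19 and 2.23, and KIF16B, a kinesin of endosome transport, by -1.35 and 1.02. In CMTM4 the low arrays overlapped the others in the probeset of negative correlation. IPO5, an importer of proteins into the nucleus, had 8.80 and 8.64 with 1 probeset against 10.23 to 11.35, and 11.49 and 10.93 with another against 9.41 to 10.42. COX11, an assembly factor of cytochrome c oxidase, differed by -1.07 and 1.10. These genes were picked because they hold both signs, so the opposite directions are given by the choice.

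**Figure D3:**
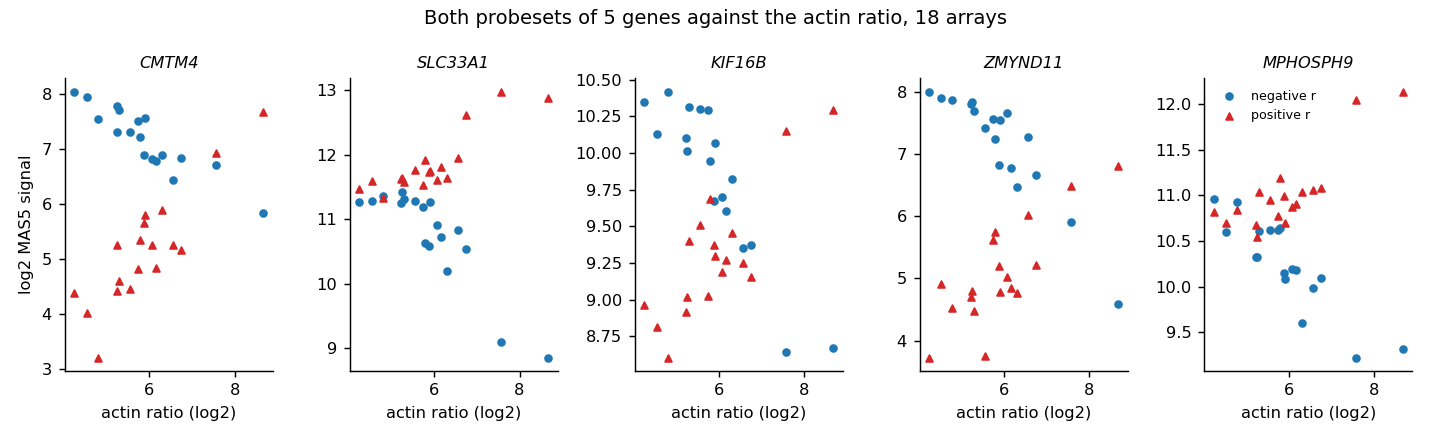
Log2 MAS5 signal (vertical axes) of 2 probesets each of CMTM4, SLC33A1, KIF16B, ZMYND11 and MPHOSPH9 against the actin ratio (horizontal axes) on 18 arrays, with circles for the probeset of negative and triangles for that of positive correlation. In SLC33A1 the low arrays at the right have 8.86 and 9.09 by 1 probeset and 12.89 and 12.98 by the other.

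The chosen probesets had to differ by at least 1 log2 unit and the other probesets of the same genes are those that did not meet the rule, so that smaller differences in the latter are given by the choice. Of the 1204 genes of the negative group, 867 had another tested probeset outside it. Those 1828 other probesets had a median 2-against-7 difference of -0.19, against -1.57 for the chosen probesets of the same genes, and 734 of them lay above 0. Of the 432 genes of the positive group 248 had another probeset, and those 412 had a median difference of 0.53, against 1.25, with 121 below 0. The median over all probesets tested was 0.11.

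Gene lists were set beside the rule with 1 probeset per gene, the brightest, for 12392 genes, of which 5.79% were in the negative and 2.78% in the positive group. The lists were not chosen by the rule, but they were fixed with earlier results of these data known. The counts of slopes on the actin ratio in the exposure chamber that passed are therefore not an independent test. Slopes given for single list genes in the negative or positive group are a description, since the rule also used arrays of the exposure chamber. There 14.4% of all 12392 genes passed the unadjusted test in limma with a slope below 0 and 12.4% with a slope above 0. On the low arrays 7168 of all these genes were higher than on the 7 other reference chamber arrays and 5224 were lower. Their median stood at 0.19 above those 7 arrays. On both low arrays this median was above all 16 others, and the list values are to be read against that shift.

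Cytosolic ribosomal proteins, which build both subunits of the ribosome, lay almost wholly on the positive side with the deposited scaling. In the exposure chamber 51 of the 52 measured genes had a slope above 0 that passed the unadjusted test, with a median slope of 0.52, and none passed in the other direction. After quantile normalization 2 of the 52 passed upward, where 10.5% of all genes did. The median slope was then 0.11, with 37 slopes above 0, so the calls depend on the scaling of the arrays. On the 7 other reference chamber arrays, none passed at an unadjusted p of 0.05 in limma, where 4.88% of all genes did upward. There 51 slopes were above 0, with a median of 0.19. RPL37A, of the large subunit, had log2 signals of 15.18 and 15.04 on the low arrays, within the 13.77 to 15.24 of the others, and a slope of 0.64 (standard error 0.11). RPS15, of the small subunit, had 14.67 and 14.66, against 13.28 to 14.40 with a median of 13.71. With RPL3 these were the 3 ribosomal genes in the positive group. The median difference of the list on the low arrays was 0.68, with 52 of 52 above 0.

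The respiratory chain and ATP synthase, which make ATP in mitochondria, lay on the same side. Of 68 genes 32 passed with a slope above 0 and 1 with a slope below 0. After quantile normalization 10 passed upward, where 10.5% of all genes did. In the 7 other reference chamber arrays none did at an unadjusted p of 0.05 in limma, where 4.88% of all genes did. There 61 of the 68 slopes were above 0. The list's median on the low arrays was 0.66 and 0.61, above all 16 others, as was the median of all genes. COX6B1, a subunit of cytochrome c oxidase, had 14.25 and 14.19, against 12.73 to 14.06 with a median of 13.25, and a slope of 0.57 (standard error 0.10). NDUFA13, of complex I, had 13.10 and 13.05, against 11.47 to 12.49 with a median of 11.81. NDUFB11 and NDUFA3, also of complex I, were in the positive group too, with slopes of 0.17 and 0.19.

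Immediate early genes and other genes of short-lived messenger RNAs, which respond within minutes to growth factors and stress, lay on the negative side. Of 34 genes 15 passed with a slope below 0 and none with one above 0. The count was 15 after quantile normalization too, where 10% of all genes passed downward. Of the 34, 29 were lower on the low arrays than on the 7 other reference chamber arrays, and the list's median, at -0.68 and -0.51, was below all 16 others. KLF10, an early transcription factor, had 9.25 and 9.18, against 10.46 to 11.49 with a median of 10.99. ZFP36, which marks short-lived messenger RNAs for decay, had 7.01 and 7.44, against 8.17 to 9.61 with a median of 8.64. CCN1, a matrix protein induced by serum, had 6.69 and 6.63, against 6.99 to 8.46 with a median of 7.81, and a slope of -0.72 (standard error 0.12). The phosphatases DUSP4, DUSP5 and DUSP6, which switch off MAP kinases, had slopes of -0.50, -0.996 and -0.57, and KLF6 had -0.18 (standard error 0.14).

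Genes of the cell cycle and proliferation had slopes below 0 in 27 of 30 cases, and 10 passed, none upward. After quantile normalization 6 passed, where 10% of all genes did in that direction. In the 7 other reference chamber arrays none did at an unadjusted p of 0.05 in limma, where 3.7% of all genes did. In both settings 27 slopes were below 0. Without the exposure chamber array of the 0.1 ppm experiments, replicate 2, 4 of the 30 passed and 20 slopes were below 0. In that fit 10.5% of all genes passed downward. Without replicate 3 of the same group 5 passed, where 6.6% of all genes did. Without the exposure chamber array of the 0.5 ppm experiments, replicate 1, 16 passed. A larger share of all genes also passed downward there than with all 9 arrays. UHRF1, a factor of DNA methylation maintenance, had the steepest slope of the chosen list genes, -1.39 (standard error 0.23), and log2 signals of 8.62 and 9.19 on the low arrays, against 9.33 to 12.51 with a median of 10.54. CCNE2, a cyclin of DNA replication, had 6.83 and 6.38, against 8.65 to 10.62 with a median of 9.49. On the low arrays the list as a whole was not low, with medians of 0.19 and -0.05.

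Very long messenger RNAs held 7 genes of the negative group among 45, or 15.6%, and none of the positive group. PRKDC, the DNA-dependent protein kinase, had 9.37 and 10.03 on the low arrays, against 10.78 to 12.35 with a median of 11.69. CHD7, a chromatin remodeller, had 7.92 and 7.60, against 8.69 to 10.12 with a median of 9.74. VPS13C, a lipid transfer protein, had 11.21 and 11.36, against 12.04 to 12.80 with a median of 12.55. KMT2A, a histone methyltransferase, ZNF462, IGF2R, the receptor that carries lysosomal enzymes, and TRRAP, a scaffold of histone acetyltransferases, were the others. In the exposure chamber 11 of the 45 passed with a slope below 0 and 2 with one above 0, and on the low arrays 25 of the 45 were higher and 20 lower than on the 7 other reference chamber arrays.

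The remaining lists held few chosen genes. The actin cytoskeleton had none in either group among 37 genes by the brightest probeset of each. Probesets other than the brightest do not enter this count. The middle control probeset of actin was itself in the negative group (r = -0.90). In the exposure chamber 7 of the 37 genes passed with a slope below 0 and 9 with one above. Targets of NRF2, the regulator of the antioxidant response, had none among 19, with 8 slopes above 0 that passed. Proteasome subunits held PSMD1 and PSMD8 in the positive group among 27 genes, with 9 slopes above 0 and 3 below 0 that passed. Heat shock proteins held HSPA4, with a slope of 0.54 (standard error 0.10), and glycolysis held ALDOA. Among targets of p53 and genes of apoptosis, CDKN1A, the inhibitor of cyclin-dependent kinases, was higher on the low arrays, at 11.49 and 11.62 against 9.56 to 10.59, while CASP8 was in the negative group.

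Of the unfolded protein and integrated stress response, EIF2AK3, the kinase PERK, and EDEM1, which sends misfolded proteins to degradation, were in the negative group and ASNS, which makes asparagine, in the positive group. EIF2AK3 had 7.66 and 7.98 on the low arrays, against 8.42 to 9.81 with a median of 9.26, and ASNS had 12.41 and 12.01, against 10.79 to 11.48 with a median of 11.14. Splicing regulators held SRRM1 and TRA2A in the negative group among 42 genes, and the enzymes of RNA degradation held DCP1A and CNOT8 in the negative and RNASET2 in the positive group among 31. NORAD, a long noncoding RNA that binds PUMILIO proteins, had 11.40 and 11.83, against 12.23 to 13.00 with a median of 12.62. The lists of hypoxia targets, sterol and fatty acid synthesis, type II and airway epithelium, and epithelial keratins and junctions each held 1 gene of the negative group, P4HA2, INSIG1, FOXA1 and CLDN1. Histones, the mitochondrially encoded RNAs and the markers of blood, endothelial and stromal cells held none. Genes with a ZNF symbol had 3.74% in the negative and 4.31% in the positive group, over 348 genes.

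**Figure D4:**
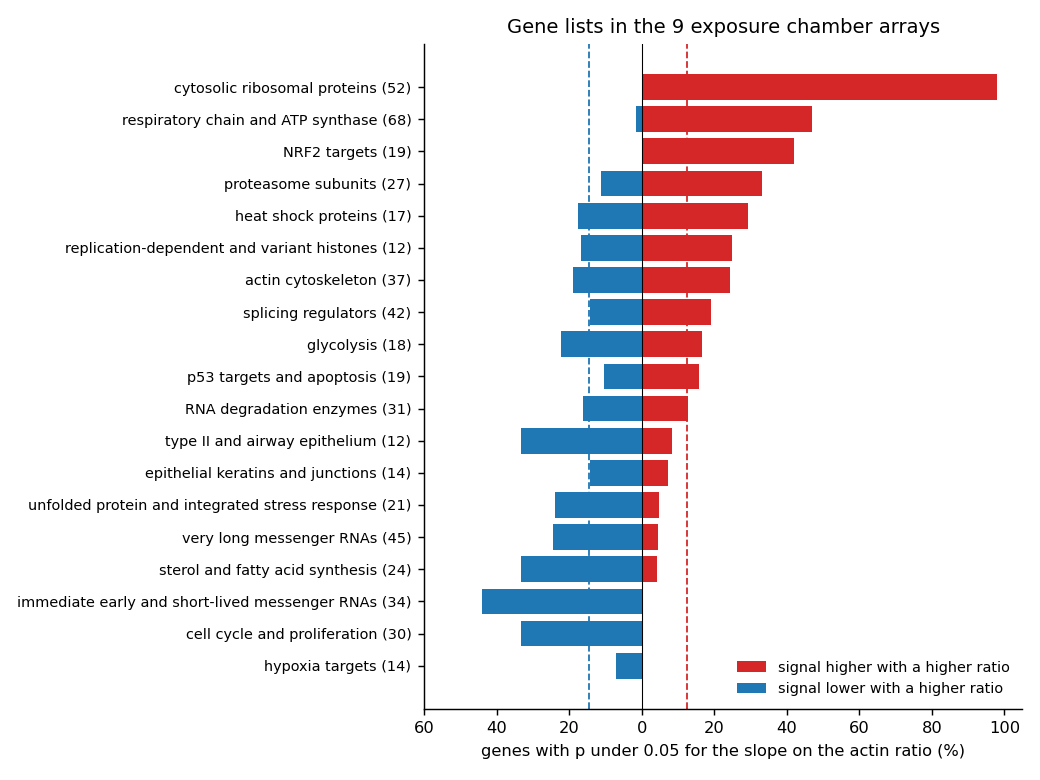
Share of genes (horizontal axis, %) whose slope on the actin ratio in the 9 exposure chamber arrays passed an unadjusted p of 0.05, to the right for slopes above 0 and to the left for slopes below 0, for each gene list of at least 12 measured genes (vertical axis, number of genes in brackets). The dashed lines mark the shares over all 12392 genes, 12.4% and 14.4%. Cytosolic ribosomal proteins reach 98.1%, a share that falls to 2 of 52 genes after quantile normalization, where 10.5% of all genes passed upward.

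The share of chosen genes varied with the length of the gene. By the gene spans of the RefSeq annotation of GRCh38.p14, the share of protein-coding genes in the negative group was 3.22% in the shortest of 5 equal classes, up to 10.6 kb, and 8.44% in the longest, from 97.0 kb on. The share in the positive group ran the opposite way, from 4.70% to 1.30%. The median span was 50.7 kb for 690 genes of the negative group, 16.1 kb for 327 of the positive group and 32.2 kb for all 11495. The span includes introns and is not the length of the messenger RNA.

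**Figure D5:**
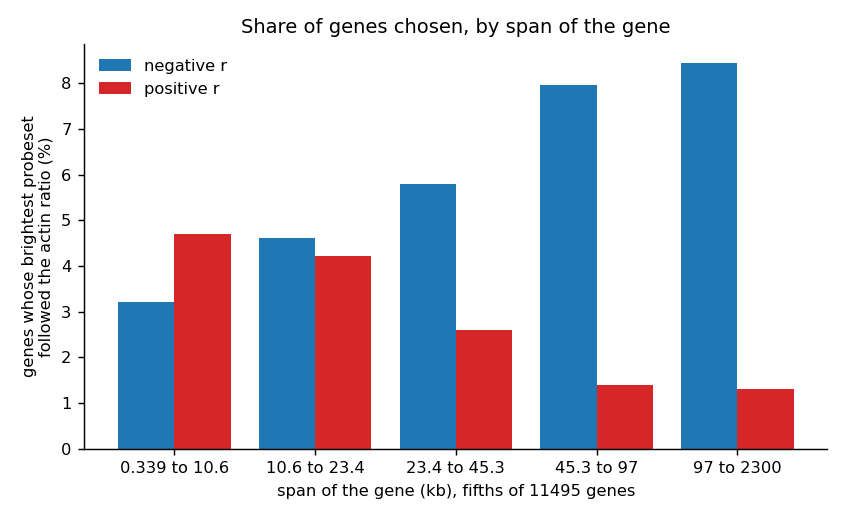
Share of protein-coding genes (vertical axis, %) whose brightest probeset belonged to the negative (blue) or the positive group (red), in 5 equal classes of 11495 genes by the span of the gene in kb (horizontal axis). The negative share rises from 3.22% to 8.44% and the positive share falls from 4.70% to 1.30%.

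By brightness, the negative group took 1.46% of the dimmest of 5 equal classes of tested probesets, 10.3% of the next-to-brightest and 5.87% of the brightest. Probesets that may bind several genes, marked x in the design, were in the negative group in 3.13% of cases, against 6.08% for those designed for 1 transcript, and in the positive group in 2.59% against 1.65%. Of 685 long noncoding RNA genes 2.48% were in the negative and 1.90% in the positive group, and of protein-coding genes 6% and 2.84%. The shares by span, brightness, design and gene type are descriptions and were not tested.

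The study compared each exposure chamber with its reference chamber, 3 arrays against 3, at an unadjusted p of 0.05 in limma. A low array is among the 3 reference arrays at 0 ppm and at 0.1 ppm and not at 0.5 ppm. At 0 ppm none of the 2079 chosen probesets passed, where 4.84% of all probesets (1.92% higher and 2.92% lower in the exposure chamber) and 1.09% of those above the median did. The negative group had a median difference of 0.46, with 1505 of 1547 higher in the exposure chamber, and the positive group one of -0.41, with 529 of 532 lower. Of all probesets, 45% were higher. The rule used the low array that is among these reference arrays. The directions and the spread of the reference arrays are therefore given by the choice, and nothing is read from these counts. The median standard error was 0.49 in the negative group. Without the low array the medians were 0.02 and -0.03, and again none passed, where 4.58% of all probesets did. Without replicate 1 of the reference chamber, the array of lowest ratio in its group, 333 chosen probesets passed, 301 of the negative group higher and 32 of the positive group lower in the exposure chamber, where 9.11% of all probesets did. With the replicate number as a block, 4 passed, where 5.69% of all probesets did.

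At 0.1 ppm again none of the 2079 passed, where 4% of all probesets (1.54% higher and 2.46% lower) and 0.355% of those above the median did. The negative group had a median of 0.48, with 1517 of 1547 higher, and the positive group one of -0.42. Of all probesets, 44.6% were higher. With a low array among the reference arrays, directions and spread are again given by the choice. Without the low array the medians were -0.16 and 0.10, the opposite sign for both groups, and 1 probeset passed, that of WARS2-AS1, with a log2 difference of -0.96, where 4.1% of all did. Without replicate 2 of the reference chamber, the array of lowest ratio of all, 33 passed, where 4.65% of all did. At 0.5 ppm, where no array was low, the medians were 0.04 and -0.11, and 2 of the 2079 passed, where 3.92% of all probesets (1.66% higher and 2.26% lower) and 0.578% of those above the median did. They were SGSM2, with a difference of -0.59 (standard error 0.22), and ACAP3, with -0.77 (standard error 0.31), both of the positive group and named because they passed. With the block 3 passed, ACAP3 among them, where 5.32% of all did, and without replicate 3 of the exposure chamber 7, where 4.26% of all did. Without replicate 1 of the exposure chamber or replicate 2 of the reference chamber none passed, and without any other single array 1 did. In these fits 4.01% to 4.71% of all probesets passed. No chosen probeset passed after adjustment in any of the 3 comparisons in limma.

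For most named genes given here the differences between chambers were smaller without the low array. The genes had been chosen with the low arrays, so such a fall is given by the choice. At 0.1 ppm some named genes, GLTP and DDX52 among them, changed sign and differed more in size without it. At 0 ppm PPP3R1 was higher in the exposure chamber by 1.05 (standard error 0.90), and by 0.13 without the low array. DDX3X differed by 1.13 (standard error 0.93) and by 0.15 without it. SCO2 differed by -0.77 (standard error 0.63) and by -0.18 without it. At 0.1 ppm PPP3R1 differed by 1.51 (standard error 1.13), and by 0.20 without the low array, while CUL4A differed by 0.16, and by -0.54 without it. At 0.5 ppm PPP3R1 differed by -0.02 (standard error 0.38) and CUL4A by -0.03 (standard error 0.34). None of these differences passed an unadjusted p of 0.05 in limma.

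With the actin ratio as a covariate in a fit over all 6 groups, 237 chosen probesets, or 11.4%, passed at 0 ppm, where 6.49% of all probesets did, 191 of the negative group higher and 46 of the positive group lower in the exposure chamber, and 100, or 4.81%, passed at 0.1 ppm, where 5.04% of all did, 87 of the negative group higher, 1 lower and 12 of the positive group lower. At 0.5 ppm 1 passed, where 3.29% of all did. The medians of the negative group were then 0.34, 0.21 and 0.03, and those of the positive group -0.32, -0.19 and -0.10. The same fit without the covariate called none of them in any of the 3 comparisons at an unadjusted p of 0.05. Of all probesets, it called 4.64%, 4.35% and 2.94%. The probesets had been selected by this ratio and by the low arrays, and the part of the ratio in these counts was not tested.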

How the data were processed

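RNA was isolated with NucleoSpin RNA/Protein kits and labelled with NuGEN's Applause 3'-Amp kit followed by biotinylation with Encore, and hybridised to Affymetrix HG-U133 Plus 2.0 arrays at a service laboratory. The deposited values are intensity signals on a linear scale, summarised per probeset by the authors with MAS5, whose global scaling gave every array a trimmed mean of 500. Log2 of these signals was used here. Probesets were named through the platform annotation, in which 41097 of 54675 name exactly 1 gene. The chosen probesets and the gene lists were fixed with earlier results of these data known.

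Groups came from the sample labels. The 3 comparisons of chambers, the slopes on the actin ratio and the alternatives were fitted with limma 3.58.1 in R 4.3.3 over all probesets or all above the median, with Benjamini-Hochberg adjustment over the table fitted. Single values were tested by exact permutation, or by 100000 permutations for 16 arrays (scipy 1.17.1). The p-values of the control ratios were adjusted over the 4 ratios tested, of which 1 is not reported here. Scripts were tested on simulated data. Raw data file names give both chambers of an experiment 1 number, so the replicate numbers pair the arrays. Deviations of same-numbered arrays from their group means correlated by 0.00865 to 0.49. The raw file of 1 array, the exposure chamber at 0 ppm, replicate 2, carries a later date than the rest, a batch of 1 array for which no within-batch value exists.

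Named genes had 1 probeset each, the brightest chosen one with a mean log2 signal of at least 9. The 12 of largest correlation and the 6 of largest difference were taken in each direction, besides the 5 genes with both signs and the largest gap in correlation, and up to 4 chosen genes per list. CHD7, TRRAP, VPS13C, DUSP5, DUSP6, KLF6, IPO5, COX11, SGSM2, ACAP3 and WARS2-AS1, with UBE2H and SOX9, fell outside this rule and were named after their values were seen. Alternatives covered the threshold, rank correlation, an added signal of 32, quantile normalization, other ratios, the replicate block and leaving out arrays.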

Additional observations from a re-analysis of the deposited data

How the results depend on the processing

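Which genes followed the actin ratio depended on the threshold and on the low arrays, and the causes were not tested. The main counts, 1547 of negative and 532 of positive correlation, became 2539 and 1429 at r of 0.7, 334 and 58 at 0.9, and 798 and 196 with Spearman's rho. Quantile normalization gave 945 positive, and the GAPDH ratio in place of the actin ratio 0 and 0. In the reference chamber alone 2539 and 1775 were chosen. With no minimum difference, which gave 2051 and 1288 over 18 arrays, 370 and 260 were chosen without both low arrays, and 1431 positive in the exposure chamber alone. Leaving out 1 array gave 616 to 1872 negative and 143 to 821 positive, the lowest without the low array of the 0.1 ppm experiments and the highest without replicate 3 of the exposure chamber at 0.1 ppm.

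The chamber difference of the ratio, -0.28, was 0.33 without both low arrays, 0.0865 for the GAPDH ratio, and -0.467 to 0.075 without 1 experiment. Against the actin ratio, GAPDH had r of -0.00157 over all arrays, 0.373 in the 7 reference chamber arrays and 0.314 after quantile normalization, and passed in none of these. For 28S r was 0.187 over all arrays, 0.496 in the exposure chamber and 0.388 without the 2 farthest arrays. It was -0.816 in the 7 reference chamber arrays (exact permutation p = 0.0321, adjusted p = 0.129) and -0.401 after quantile normalization. For 18S r was -0.469 in the 7 reference chamber arrays and -0.543 after quantile normalization, and passed after adjustment in neither. Its Spearman rho after quantile normalization, -0.709, did pass (permutation test, adjusted p = 0.0109). The reference-chosen probesets that passed in the exposure chamber numbered 612 to 1083 negative and 155 to 366 positive without 1 array.

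With the replicate number as a block, 4 chosen probesets passed at 0 ppm, 0 at 0.1 ppm and 3 at 0.5 ppm. This was at an unadjusted p of 0.05 in limma, where 5.69%, 4.48% and 5.32% of all probesets passed. None passed after adjustment. At 0 ppm 9 passed with 32 added to the signals, where 4.78% of all probesets did. With only probesets above the median 9 passed, where 3.69% of all those did. With the ratio as a covariate 237 passed, where 6.49% of all did. Without 1 array 0 to 333 passed, where 4.41% to 9.11% of all did. At 0.1 ppm 100 passed with the covariate, where 5.04% of all did, and 1 without both low arrays, where 4.1% did. Without 1 array 0 to 33 passed, where 3.98% to 4.65% of all did. At 0.5 ppm 7 passed with 32 added, 0 after quantile normalization, 0 in a fit of all 6 groups and 1 with the covariate. In these fits 2.89%, 3.91%, 2.94% and 3.29% of all probesets passed. Without 1 array 0 to 7 passed, where 4.01% to 4.71% of all did.

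The alternatives for the gene lists were chosen after seeing the data. Ribosomal proteins went from 51 called to 2 after quantile normalization and 0 in the 7 reference chamber arrays, the respiratory chain from 32 to 10 and 0, and cell cycle genes from 10 to 6 and 0. Without 1 array these lists had 47 to 51, 22 to 34 and 4 to 16, and immediate early genes 10 to 18. The share of all genes that passed varied too. It was lowest without replicate 3 of the exposure chamber at 0.1 ppm, at 5.12% upward and 6.6% downward. The number of arrays limits the precision, and the low arrays are 2.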

Other observations

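Genes of sterol and fatty acid synthesis, which make cholesterol and lipids, and genes of type II and airway epithelium took different directions in the 2 sets of arrays. On the low arrays the sterol list had medians of 0.63 and 0.54 relative to the 7 other reference chamber arrays, above all 16 others, with 16 of 24 genes higher, while in the exposure chamber 8 of the 24 passed the unadjusted limma test with a slope below 0 and 1 with a slope above 0. The epithelium list had medians of 0.38 and 0.31 on the low arrays, also above all 16 others, and 4 of its 12 genes passed with a slope below 0 and 1 above. The median of all 12392 genes, at 0.185 and 0.195, was above all 16 others there too. Of the 12392, 7168 were higher on the low arrays than on the 7 other reference chamber arrays. In the exposure chamber 14.4% of all genes passed with a slope below 0 and 12.4% with one above. The difference between these directions was not tested.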
